A study of Mus musculus with 8 samples.

Results

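The integrin and laminin families were followed through liver RNA of mice given AAV8-AGXT or AAV8-GFP. The 37 genes are those protein-coding genes of the count tables whose symbols name an integrin alpha chain (18 genes), an integrin beta chain (8 genes) or a laminin chain (11 genes), of 52636 genes in all. The rule goes by family name and uses no measured value. RNA of 8 male C57BL/6J wild-type mice was sequenced, 1 library per mouse, with 4 mice per group. Both groups received an adeno-associated virus of serotype AAV8 at 7 weeks of age, which carried GFP or human AGXT, the alanine-glyoxylate aminotransferase, behind the hepatocyte-specific TBG promoter, so that the transgene was directed to hepatocytes and not to the other cells of the liver. From 8 weeks of age, mice of both groups ate the MASH diet, high in fat, cholesterol and fructose, for 24 weeks, and livers were harvested at 32 weeks. The AAV8-GFP group held mice 303, 311, 314 and 315, and the AAV8-AGXT group mice 308, 309, 316 and 319. No mice fed a control diet are part of this comparison, so each value compares 2 groups of mice on the same diet.

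Integrins are receptors made of 1 alpha and 1 beta chain that hold cells to the extracellular matrix or to other cells and connect these contacts to the actin cytoskeleton. Laminins are trimers of 1 alpha, 1 beta and 1 gamma chain that form the scaffold of basement membranes, and several integrins are laminin receptors. In the liver, hepatocytes carry a narrow set of integrins, stellate cells, endothelium and bile duct cells each carry their own, and leukocytes carry the family that pairs with Itgb2. Basement membranes surround bile ducts and larger vessels, whereas the sinusoids lack a continuous one.

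Of the 37 genes, 23 matched a RefSeq promoter window on GRCm38.p6. The 5 sequences printed here are the 250 bases before the RefSeq start, read 5′ to 3′ on the strand of the gene. They are the members with non-overlapping groups that have a window (Itga5, Itgam, Itgax and Itgb5), together with the member with the highest positive fold change (Lamb3). They are shown so that these members can be read beside the region before a RefSeq start. Capitals mark matches, on either strand, to an AP-1 site (TGANTCA), a PU.1 site (GAGGAAGT), a TEAD site (GGAATG), an Sp1 site (GGGCGG) or a TATA box (TATAAA). None of these letter strings holds another, and they were chosen after the expression values were known. The windows lie at chr15:103366792-103367041 on the minus strand (Itga5), chr7:128062390-128062639 on the plus strand (Itgam), chr7:128129300-128129549 on the plus strand (Itgax), chr16:33829415-33829664 on the plus strand (Itgb5) and chr1:193301744-193301993 on the plus strand (Lamb3). The Lamb3 window lies inside the annotated gene, whose first base is 193207699, so it does not precede the first annotated base of Lamb3.
Itga5: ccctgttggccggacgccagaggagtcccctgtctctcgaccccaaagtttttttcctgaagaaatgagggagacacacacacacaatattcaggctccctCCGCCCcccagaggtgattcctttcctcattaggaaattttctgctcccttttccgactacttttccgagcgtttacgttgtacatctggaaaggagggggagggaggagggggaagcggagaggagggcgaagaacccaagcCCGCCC
Itgam: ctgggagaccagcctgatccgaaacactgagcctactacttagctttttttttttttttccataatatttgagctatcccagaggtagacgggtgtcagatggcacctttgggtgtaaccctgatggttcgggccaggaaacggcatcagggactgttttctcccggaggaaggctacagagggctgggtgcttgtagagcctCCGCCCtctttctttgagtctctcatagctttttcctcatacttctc
Itgax: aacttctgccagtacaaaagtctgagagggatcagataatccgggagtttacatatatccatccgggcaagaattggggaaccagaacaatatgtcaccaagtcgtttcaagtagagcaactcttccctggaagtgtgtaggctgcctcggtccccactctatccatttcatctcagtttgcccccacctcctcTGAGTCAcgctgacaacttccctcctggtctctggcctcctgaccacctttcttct
Itgb5: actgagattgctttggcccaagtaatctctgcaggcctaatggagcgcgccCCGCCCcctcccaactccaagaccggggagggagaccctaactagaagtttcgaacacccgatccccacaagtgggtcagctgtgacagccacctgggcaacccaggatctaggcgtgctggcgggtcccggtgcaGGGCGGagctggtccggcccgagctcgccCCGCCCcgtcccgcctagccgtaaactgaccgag
Lamb3: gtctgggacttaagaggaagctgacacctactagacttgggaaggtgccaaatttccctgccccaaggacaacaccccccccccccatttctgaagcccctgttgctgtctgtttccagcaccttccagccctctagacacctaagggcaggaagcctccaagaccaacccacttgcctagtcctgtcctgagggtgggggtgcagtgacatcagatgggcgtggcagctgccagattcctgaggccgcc

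The Itga5, Itgam and Itgb5 windows held Sp1 letters, at -149 and -6 in Itga5, at -47 in Itgam and at -199, -63 and -34 in Itgb5, where positions give the first base of a match counted back from the start. Among the members, 8 of 23 windows held Sp1 letters, beside 32.7% of all 32817 windows. The AP-1 letters in Itgax, at -56, were the only ones among the 23 windows, and 6.75% of all windows held them. PU.1 letters were present in 2 member windows (Itga11 and Itgav) and in 2.44% of all windows, and TEAD letters in 2 (Itga10 and Itgb1) and in 12.6%. TATA letters were found in 12.4% of all windows and in 0 of the members' windows. The Lamb3 window held none of the 5 strings, which says only that these letters are not in this stretch.

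Libraries held 17095433 to 28780140 read pairs assigned to a gene. The integrin and laminin genes took up between 0.0472% (mouse 308) and 0.0917% (mouse 311) of them. Counts on mouse Agxt averaged 305 ± 98.3 CPM in the AAV8-AGXT group and 164 ± 15.8 CPM in the AAV8-GFP group (SD over 4 mice). Whether read pairs of the human transgene contribute to them was not tested, so they are not a check of the labels. Mouse 308 stood apart, with 56.3% of its tally on genes against at least 62.4% in the other mice. Expression is given as CPM, which relates the counts of a gene to the library size scaled by the TMM factors of edgeR, and levels of different genes are compared only as CPM per kb of exon. Fold changes are log2 values of AAV8-AGXT against AAV8-GFP from the quasi-likelihood test of edgeR, and p-values were adjusted by Benjamini-Hochberg over the 15248 genes that passed its low-count filter. Genes under 0.05 after adjustment count as called. All members but 1 passed this filter. The exception was Itgad, a leukocyte alpha chain, with 1, 7, 1 and 6 counts in the AAV8-GFP mice and 0, 0, 9 and 0 in the AAV8-AGXT mice.

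Levels per length ranged widely among the 36 tested genes. Itgb1, the beta chain shared by most matrix-binding integrins, and Itgb5, the partner of Itgav in a vitronectin receptor, stood far above all others, with means over 8 mice of 39.1 and 31.98 CPM per kb. Their ranges over mice overlapped each other, 35.9 to 46.1 and 22.6 to 40.2 CPM per kb, and lay wholly above that of every other member. Next came Itga5, the alpha chain of the main fibronectin receptor, with 8.395 CPM per kb (6.12 to 11.8), and Itgb2, the leukocyte beta chain, with 7.43 CPM per kb (2.38 to 11.4), which overlapped. Lamb3, Itgax, Itgal, Lamc1 and Itga9 followed between 3.84 and 3.01 CPM per kb, and their ranges over mice overlapped one another. Among laminin chains, Lamb3 was the highest by the mean over 8 mice, although its mice ran from 1.40 to 10.5 CPM per kb. In the AAV8-GFP mice its mean was 1.99 CPM per kb, below Lamc1 (3.92), Lamb2 (3.45), Lama5 (3.02) and Lamc3 (2.94). The lowest tested members were Itgb6, Itgb8, Itga2 and Itga11, whose medians over mice were between 0.105 and 0.144 CPM per kb.

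**Figure D1:**
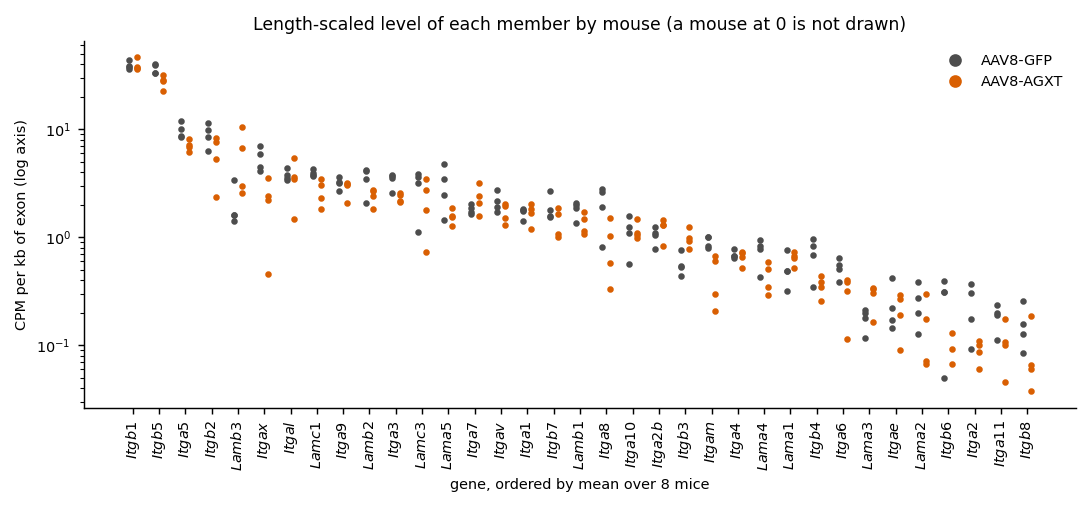
Level of the tested integrin and laminin genes that are reported by name in each mouse, as CPM per kb of exon on a log axis, with AAV8-GFP mice in grey and AAV8-AGXT mice in orange and genes ordered by their mean over 8 mice. Itgb1 and Itgb5 lie above all other members in every mouse, and Lamb3 runs from 1.40 to 10.5 CPM per kb.

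Most members had lower means in AAV8-AGXT mice, and none passed the adjusted threshold of edgeR. The mean was lower for 29 of 36 genes, where 47.7% of all tested genes were lower, and the median log2 fold change was -0.46, beside 0.02 over all genes. Estimates ran from -1.84 (Itgb6) to 1.51 (Lamb3). edgeR called 0 members lower and 0 higher, with 1.9% of all tested genes called lower, 2.45% called higher and 4.35% called in either direction. Adjusted p-values of the members ran from 0.0657 (Itga3) to 0.999 (Itgb1). At an unadjusted p under 0.05, 15 members were lower, where 12.6% of all genes were, and 3 were higher (Itgb3, Lama3 and Lamb3), where 13.5% of all genes were. The groups did not overlap for 6 of 36 members, or 16.7%, close to the background of 16.6% of all tested genes. Of these 6, Itga5, Itgb5, Itgam, Itgax and Lamc1 had all 4 AAV8-AGXT mice below all 4 AAV8-GFP mice, where 7.63% of all genes did, and Itgb3 had them above, where 8.93% of all genes did.

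Whether a member was called depended on the test. The Wald test of DESeq2 called 10 members lower (Itga2, Itga3, Itga5, Itga8, Itgam, Itgax, Itgb4, Itgb5, Lama5 and Lamc1), beside 6.91% of all genes, and 2 higher (Itgb3 and Lamb3), beside 7.06%. limma-voom called 0. Scaling by total counts moved the median of all genes by -0.24 on the log2 scale and called Itga3 and Itga5 lower, beside 5.62% of all genes. Without a filter on low counts Lamb3 was called higher, beside 1.46% of all genes. Without AAV8-GFP mouse 315, edgeR called Itga2, Itga3, Itgb4 and Lama5 lower, beside 2.11% of all genes, and without AAV8-AGXT mouse 309 it called Lamc1 lower, beside 1.67%.

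**Figure D2:**
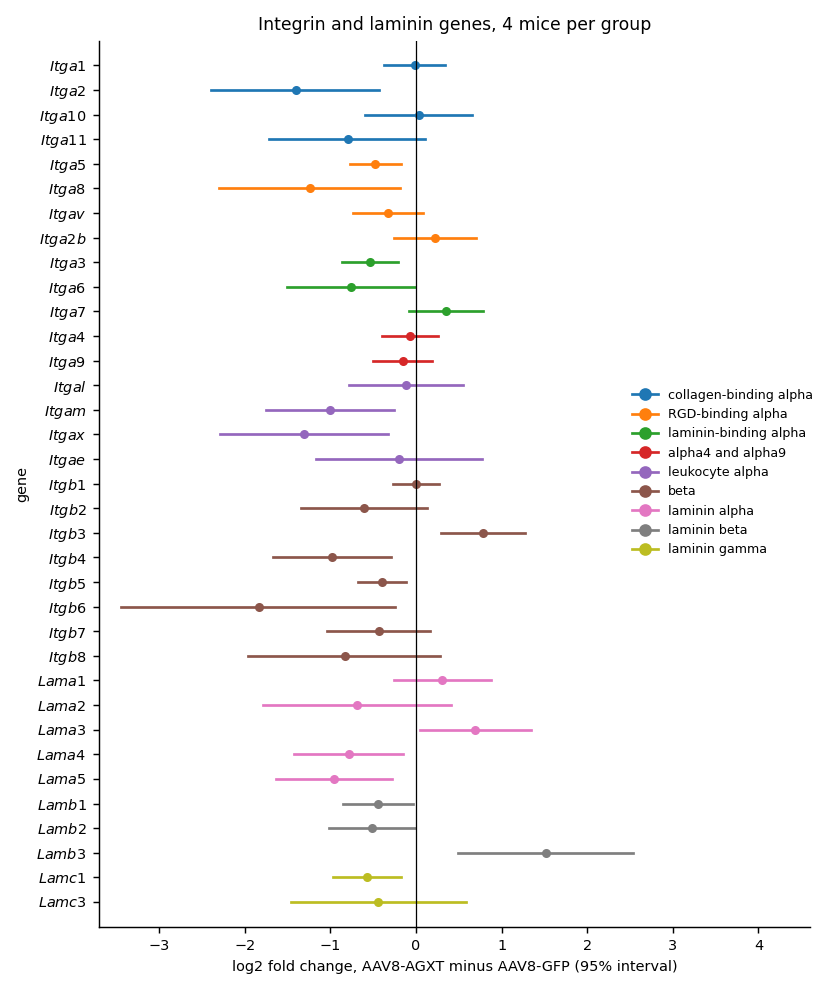
Log2 fold change (AAV8-AGXT against AAV8-GFP) of the tested genes that are reported by name with its 95% interval from edgeR, coloured by role, 4 mice per group. Most points lie left of 0, Itgb1 sits at 0 with an interval from -0.27 to 0.27, and Itgb6 (-1.84) and Lamb3 (1.51) mark the ends.

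Of the collagen-binding alpha chains, which pair with Itgb1, Itga1 was the most abundant per length at 1.68 CPM per kb. Itga1 (ENSMUSG00000042284, chromosome 13, 114953096 to 115101964) had 34.0, 33.0, 32.2 and 26.3 CPM in the AAV8-GFP mice and 30.9, 37.3, 34.1 and 21.99 CPM in the AAV8-AGXT mice. The groups overlapped throughout, with a log2 fold change of -0.02 (95% interval -0.37 to 0.34, adjusted p = 0.964). Part of its exons, 685 of 18599 bases, is shared with Gm49395 on the same strand. Itga10 followed at 1.13 CPM per kb, and Itga2 and Itga11 were scarce. Itga2 had 9 to 71 counts per mouse and 1.68 ± 0.888 CPM against 0.637 ± 0.156 CPM (SD over 4 mice), with a log2 fold change of -1.40 (95% interval -2.39 to -0.43, adjusted p = 0.0855). Itga11, the collagen receptor of fibroblast-like cells, had 5 to 39 counts per mouse and a log2 fold change of -0.80 (95% interval -1.72 to 0.11). Itga10 was the exception in sign with a log2 fold change of 0.03 (95% interval -0.60 to 0.66), and that sign turned negative with upper-quartile or total-count scaling. Of its 5186 exonic bases, 1739 are shared with Gm42957 on the same strand, which had at most 1 count in any mouse.

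The alpha chains that bind the RGD motif of fibronectin and vitronectin held 1 member with non-overlapping groups, Itga5. Itga5 (ENSMUSG00000000555, chromosome 15, 103344286 to 103366763) had 58.3, 49.8, 41.5 and 43.0 CPM in the AAV8-GFP mice and 39.9, 30.2, 35.2 and 33.6 CPM in the AAV8-AGXT mice. The highest AAV8-AGXT value, in mouse 308, lay just below the lowest AAV8-GFP value, in mouse 314. The means were 48.1 ± 7.65 and 34.7 ± 4.05 CPM (SD over 4 mice), with a log2 fold change of -0.47 ± 0.13 (SE, adjusted p = 0.0703 from edgeR). Itga8, the nephronectin receptor that marks stellate cells in the liver, had a wider range, 14.9 ± 6.57 against 6.35 ± 3.85 CPM (SD over 4 mice) and a log2 fold change of -1.24 (95% interval -2.29 to -0.18, adjusted p = 0.137). Its AAV8-GFP mouse 315, at 6.00 CPM, lay within the AAV8-AGXT range. Itgav, the alpha chain that joins Itgb3, Itgb5, Itgb6 and Itgb8, had a log2 fold change of -0.32 (95% interval -0.73 to 0.09). Itga2b, the platelet fibrinogen receptor chain, was at 0.22 (95% interval -0.25 to 0.70), and its sign turned negative with total-count scaling.

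The laminin-binding alpha chains differed in direction. Itga3 (ENSMUSG00000001507, chromosome 11, 95044474 to 95076801), a receptor of epithelial basement membranes, had the smallest p-value of all members. It had 19.95, 21.4, 21.2 and 14.5 CPM in the AAV8-GFP mice and 12.2, 14.7, 14.0 and 12.1 CPM in the AAV8-AGXT mice. Only AAV8-GFP mouse 315 reached into the AAV8-AGXT range. The log2 fold change was -0.54 ± 0.15 (SE, adjusted p = 0.0657 from edgeR). Itga6, which joins Itgb1 or Itgb4, had 4.71 ± 0.966 against 2.76 ± 1.20 CPM (SD over 4 mice) and a log2 fold change of -0.76 (95% interval -1.51 to -0.01, adjusted p = 0.187). Itga7, the laminin receptor best known from muscle, had a positive estimate of 0.35 (95% interval -0.08 to 0.79, adjusted p = 0.281).

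Itga4 and Itga9, which bind VCAM1, osteopontin and matrix ligands, showed no detectable difference. Itga9 (ENSMUSG00000039115, chromosome 9, 118606690 to 118901003) had 24.4, 25.2, 27.5 and 20.5 CPM in the AAV8-GFP mice and 15.8, 23.6, 24.4 and 23.8 CPM in the AAV8-AGXT mice. Apart from mouse 308, the AAV8-AGXT mice lay inside the AAV8-GFP range, and the log2 fold change was -0.15 (95% interval -0.50 to 0.19, adjusted p = 0.564). For Itga4 it was -0.07 (95% interval -0.40 to 0.26), and 1124 of its exonic bases lie opposite Cerkl.

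All 4 tested leukocyte alpha chains had lower means, and 0 were called. Itgax (CD11c), found on dendritic cells and on recruited macrophages, and Itgam (CD11b), found on myeloid cells, had non-overlapping groups, whereas Itgal (CD11a), found on lymphocytes and most other leukocytes, had overlapping ones. The difference between these genes was not tested. Itgax (ENSMUSG00000030789, chromosome 7, 128129547 to 128150657) had 21.4, 33.7, 28.0 and 19.7 CPM in the AAV8-GFP mice and 2.21, 11.5, 17 and 10.6 CPM in the AAV8-AGXT mice. Its means were 25.7 ± 6.43 and 10.3 ± 6.11 CPM (SD over 4 mice), a log2 fold change of -1.31 ± 0.44 (SE, adjusted p = 0.103 from edgeR). Mouse 308 was the lowest of all. Itgam (ENSMUSG00000030786, chromosome 7, 128062640 to 128118491) had 3.98, 5.08, 5.03 and 4.15 CPM in the AAV8-GFP mice and 1.04, 1.502, 3.39 and 3.02 CPM in the AAV8-AGXT mice, and its log2 fold change was -1.01 ± 0.34 (SE, adjusted p = 0.100 from edgeR). Of its 5024 exonic bases in GENCODE M21, 3450 are shared with Gm49368 on the same strand. Whether Gm49368 was in the annotation used for counting is not shown here. Only if it was would read pairs that fit both genes be counted on neither under the usual settings of the counter. For Itgal the AAV8-AGXT values, 9.67, 23.7, 22.9 and 35.2 CPM, spread on both sides of the AAV8-GFP values, 22.3, 28.9, 23.4 and 24.8 CPM, with a log2 fold change of -0.12 (95% interval -0.78 to 0.55). Itgae, which joins Itgb7 on lymphocytes that bind epithelium, had 6 to 63 counts per mouse and a log2 fold change of -0.20 (95% interval -1.17 to 0.78).

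Within a mouse, the ratio of Itgax to Itgal did not overlap between the groups, a ratio chosen after the values were seen and given as a description. Per length, Itgax was 1.41 ± 0.26 times Itgal in AAV8-GFP mice and 0.60 ± 0.31 times Itgal in AAV8-AGXT mice (SD over 4 mice). The lowest AAV8-GFP ratio was 1.09 and the highest AAV8-AGXT ratio was 1.017, in mouse 316. Leukocyte integrins (Itgal, Itgam, Itgax, Itgad, Itgae, Itgb2 and Itgb7) as a share of all integrin counts were 12.8%, 17.7%, 14.4% and 14.9% in the AAV8-GFP mice and 5.51%, 10.7%, 14.0% and 15.9% in the AAV8-AGXT mice, so the groups overlapped and mouse 308 was the lowest. The means were 14.95 ± 2.08% and 11.5 ± 4.54% (SD over 4 mice), 3.42 percentage points apart. Without mouse 308 the difference was -1.42 percentage points. Beside these genes stand the leukocyte markers. All 5 of Ptprc, Cd53, Coro1a, Laptm5 and Cd52 had lower means in AAV8-AGXT mice, 0 of them were called, and their summed level ran from 128 to 221 CPM in AAV8-GFP mice and from 45.2 to 136 CPM in AAV8-AGXT mice, with mouse 308 the lowest. The 5 macrophage and Kupffer cell markers summed to 259 ± 44.8 and 254 ± 109 CPM (SD over 4 mice), with 2 of 5 means lower and 0 called. Within this sum the genes differed in direction. Cd68, a lysosomal protein of macrophages, had 53.9 ± 10.7 and 26.9 ± 12.9 CPM (SD over 4 mice) with non-overlapping groups and a log2 fold change of -1.001 (95% interval -1.78 to -0.22, adjusted p = 0.111 from edgeR). The Kupffer cell markers Clec4f and Timd4 had higher means in AAV8-AGXT mice, with 93.0 ± 26.6 and 127 ± 58.6 CPM for Clec4f and 0.881 ± 0.421 and 5.002 ± 5.77 CPM for Timd4 (SD over 4 mice), both with overlapping groups. Log2 fold changes were 0.45 for Clec4f (95% interval -0.22 to 1.11) and 2.49 for Timd4 (95% interval 0.89 to 4.09, adjusted p = 0.0736 from edgeR). Mouse 319 had 13.6 CPM of Timd4, where mice 308, 309 and 316 had 3.04, 2.04 and 1.34 CPM. Dendritic cell markers summed to 13.4 ± 1.48 and 11.7 ± 1.67 CPM (SD over 4 mice), with 4 of 4 means lower. In whole-liver RNA, fewer cells of a type and less RNA per cell cannot be told apart, and the part of the cell makeup in the leukocyte integrins was not tested.

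The beta chains ran from a gene with no detectable difference to the integrin with the lowest estimate. Itgb1 (ENSMUSG00000025809, chromosome 8, 128685654 to 128733200) had 148, 153, 179 and 158 CPM in the AAV8-GFP mice and 147, 188, 153 and 149 CPM in the AAV8-AGXT mice. Both means were 159 CPM, and the log2 fold change was -0.00048 with a 95% interval of -0.27 to 0.27. Itgb5 (ENSMUSG00000022817, chromosome 16, 33829665 to 33949338) had 117, 139, 143 and 117 CPM in the AAV8-GFP mice and 80.4, 101, 112 and 99.6 CPM in the AAV8-AGXT mice. These groups did not overlap, with means of 129 ± 13.9 and 98.1 ± 13.0 CPM (SD over 4 mice) and a log2 fold change of -0.40 ± 0.13 (SE, adjusted p = 0.0920 from edgeR). Per length, Itgb5 was 0.93 ± 0.08 times Itgb1 in AAV8-GFP mice and 0.71 ± 0.11 times in AAV8-AGXT mice (SD over 4 mice), with a lowest AAV8-GFP ratio of 0.853 and a highest AAV8-AGXT ratio of 0.836. This ratio was also chosen after the values were seen.

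Itgb3, which forms the platelet fibrinogen receptor with Itga2b and a vitronectin receptor with Itgav, was the integrin with the highest estimate. Itgb3 (ENSMUSG00000020689, chromosome 11, 104608000 to 104670476) had 3.16, 4.47, 3.09 and 2.602 CPM in the AAV8-GFP mice and 7.25, 5.41, 5.80 and 4.62 CPM in the AAV8-AGXT mice. The lowest AAV8-AGXT value (mouse 319) lay just above the highest AAV8-GFP value (mouse 311). Its log2 fold change was 0.78 ± 0.22 (SE, adjusted p = 0.0703 from edgeR). The 4 platelet and megakaryocyte markers were low in both groups and summed to 4.76 ± 0.58 CPM in the AAV8-GFP group and to 2.80 ± 0.90 CPM in the AAV8-AGXT group (SD over 4 mice), with 2 of 4 means lower. The lower sum came mostly from Pf4, at 3.57 ± 0.861 and 1.42 ± 0.976 CPM (SD over 4 mice), while Gp1ba and Ppbp had higher means in the AAV8-AGXT group. Sinusoidal endothelium markers had higher means in AAV8-AGXT mice for 5 of 5 genes, with sums of 106 to 172 CPM and 111 to 230 CPM in the AAV8-GFP and AAV8-AGXT mice, and 0 were called.

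The other beta chains all had lower means. Itgb2, the shared leukocyte chain, had 27.4 ± 6.64 against 17.9 ± 8.10 CPM (SD over 4 mice), a log2 fold change of -0.61 (95% interval -1.35 to 0.13). Itgb7, the lymphocyte chain, was at -0.43 (95% interval -1.04 to 0.17). Itgb4, the hemidesmosome chain that joins Itga6, had 4.92 ± 1.84 against 2.48 ± 0.525 CPM (SD over 4 mice) and a log2 fold change of -0.98 (95% interval -1.67 to -0.29, adjusted p = 0.0880). Itgb6 and Itgb8, which with Itgav release TGF-beta from its latent form, had few counts, 0 to 92 and 6 to 61 per mouse, and log2 fold changes of -1.84 (95% interval -3.45 to -0.24) and -0.83 (95% interval -1.96 to 0.28). Without AAV8-AGXT mouse 309 the estimate for Itgb8 was -1.50. Itgb6 values were 2.19, 2.82, 2.21 and 0.353 CPM in the AAV8-GFP mice and 0, 0.661, 0.924 and 0.472 CPM in the AAV8-AGXT mice, so that AAV8-GFP mouse 315 sat within the AAV8-AGXT range.

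**Figure D3:**
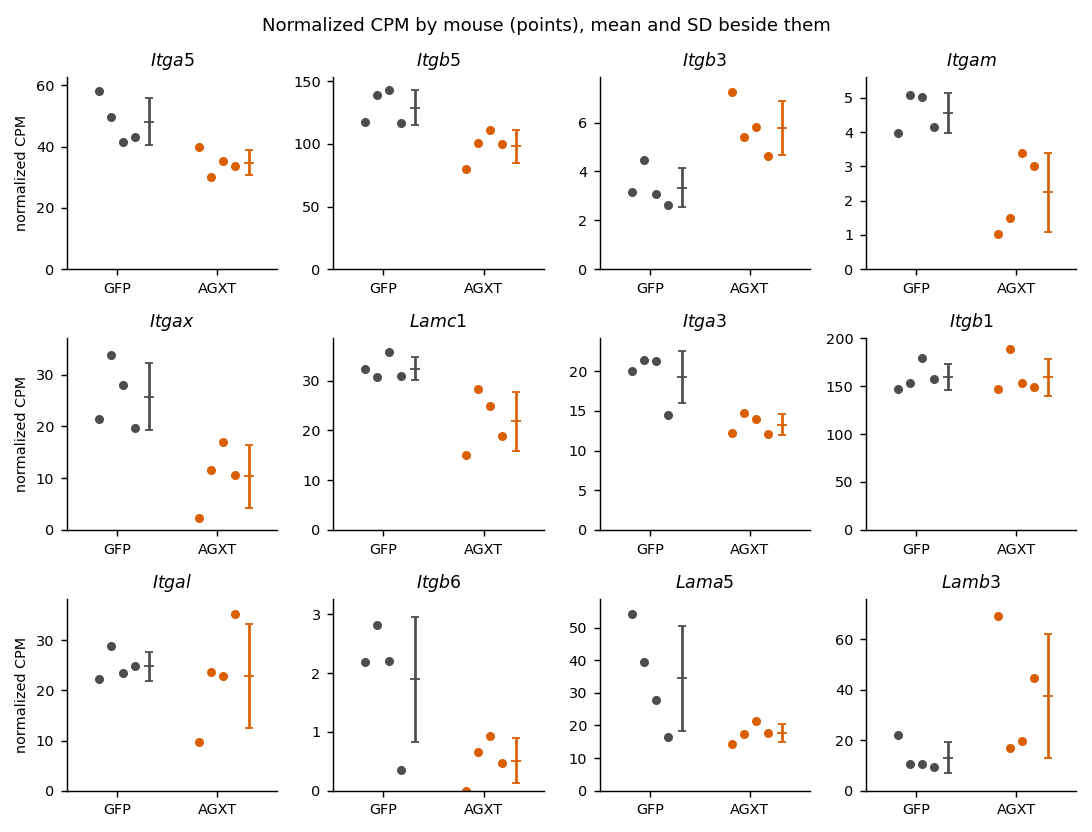
Normalized CPM of 12 integrin and laminin genes in each mouse (points, in the order 303, 311, 314 and 315 for AAV8-GFP in grey and 308, 309, 316 and 319 for AAV8-AGXT in orange), with the group mean and SD beside the points, n = 4. The groups do not overlap for Itga5, Itgb5, Itgb3, Itgam, Itgax and Lamc1, and they overlap for Itga3, Itgb1, Itgal, Itgb6, Lama5 and Lamb3.

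Laminin alpha chains, which carry the sites that integrins bind, were led by Lama5, the widespread chain of mature basement membranes, at 2.29 CPM per kb. Lama5 (ENSMUSG00000015647, chromosome 2, 180176373 to 180225859) had 54.0, 39.3, 27.9 and 16.5 CPM in the AAV8-GFP mice and 14.4, 17.3, 21.4 and 17.7 CPM in the AAV8-AGXT mice. The AAV8-AGXT mice lay close together and AAV8-GFP mouse 315 lay among them, while the other AAV8-GFP mice were higher. The log2 fold change was -0.96 ± 0.30 (SE, adjusted p = 0.0889 from edgeR). Lama4, the chain of vessel walls, had 8.95 ± 2.64 against 5.21 ± 1.65 CPM (SD over 4 mice) and a log2 fold change of -0.78 (95% interval -1.42 to -0.15, adjusted p = 0.122). Lama2, known from muscle and mesenchymal cells, was at -0.69 (95% interval -1.79 to 0.41). Lama1, the embryonic chain, was at 0.31 (95% interval -0.25 to 0.87) and Lama3, an epithelial chain, at 0.69 (95% interval 0.05 to 1.34, adjusted p = 0.163), both with higher means in AAV8-AGXT mice.

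Among the laminin beta chains, Lamb3, a chain of the laminin that anchors epithelia, had a positive estimate, unlike Lamb1 and Lamb2. Lamb3 (ENSMUSG00000026639, chromosome 1, 193207699 to 193343878) had 22.3, 10.5, 10.6 and 9.26 CPM in the AAV8-GFP mice and 69.3, 16.8, 19.8 and 44.5 CPM in the AAV8-AGXT mice. Mice 308 and 319 were far above all others, and mouse 303 raised the AAV8-GFP range above the values of mice 309 and 316. The means were 13.1 ± 6.10 and 37.6 ± 24.5 CPM (SD over 4 mice), with a log2 fold change of 1.51 ± 0.46 (SE, adjusted p = 0.0814 from edgeR). Lamb1 and Lamb2, the beta chains of most basement membranes, had log2 fold changes of -0.44 (95% interval -0.85 to -0.03, adjusted p = 0.165) and -0.52 (95% interval -1.02 to -0.02, adjusted p = 0.179).

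Lamc1, the gamma chain of most laminin trimers, was the laminin gene with non-overlapping groups. Lamc1 (ENSMUSG00000026478, chromosome 1, 153218922 to 153332786) had 32.3, 30.6, 35.7 and 31.0 CPM in the AAV8-GFP mice and 15.1, 28.4, 25.0 and 18.9 CPM in the AAV8-AGXT mice. The AAV8-GFP mice lay close together and all AAV8-AGXT mice were below them. The means were 32.4 ± 2.32 and 21.8 ± 5.98 CPM (SD over 4 mice), a log2 fold change of -0.57 ± 0.18 (SE, adjusted p = 0.0874 from edgeR). Lamc3 had 17.9 ± 7.58 against 13.2 ± 7.12 CPM (SD over 4 mice) and a log2 fold change of -0.44 (95% interval -1.46 to 0.58). Of the 11 laminin genes, 8 had lower means and 3 had higher means. All laminin counts together were 0.27 ± 0.07 times all integrin counts in AAV8-GFP mice and 0.28 ± 0.04 times in AAV8-AGXT mice (SD over 4 mice).

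Several members belong to epithelial cells, and bile duct markers are given beside them. The 5 cholangiocyte markers Krt19, Krt7, Epcam, Sox9 and Cldn7 had lower means in AAV8-AGXT mice in 5 of 5 cases, and 0 were called. Their summed level was 53.8, 66.1, 68.2 and 25.0 CPM in the AAV8-GFP mice and 14.9, 36.2, 26.0 and 18.6 CPM in the AAV8-AGXT mice. AAV8-GFP mouse 315 was the lowest of its group in these markers, and it was also the lowest AAV8-GFP mouse for 25 of the 36 tested members, among them Itga2, Itga3, Itga6, Itgb4, Itgb6, Lama5 and Lamb2. Mouse 308 was the lowest AAV8-AGXT mouse for 18 of 36. Stellate cell markers summed to 321 ± 45.3 and 288 ± 106 CPM (SD over 4 mice), with 3 of 5 means lower and 0 called. Most of this sum was Dcn, at 212 ± 28.9 and 191 ± 84.5 CPM (SD over 4 mice). Des had non-overlapping groups and a log2 fold change of -0.50 (adjusted p = 0.135 from edgeR). For Pdgfrb it was -0.67 (adjusted p = 0.162 from edgeR) with overlapping groups, while Lrat and Reln had higher means in AAV8-AGXT mice. Hepatocyte markers were high in both groups, 47357 ± 4202 and 61164 ± 9243 CPM (SD over 4 mice), with 5 of 5 means higher in AAV8-AGXT mice and Cps1 called. Acta2, listed under smooth muscle, was the only gene called in the other marker lists, at a log2 fold change of -0.99 (adjusted p = 0.0427 from edgeR). Most of the smooth muscle sum (8.49 to 14.995 against 6.04 to 7.73 CPM) was Acta2, at 8.31 ± 2.51 and 4.17 ± 0.351 CPM (SD over 4 mice). Myh11 was at -0.31 with overlapping groups. The paper stained the protein of Acta2 to follow stellate cells, and the 5 stellate cell markers above do not include this gene. Sums did not separate the groups for neutrophils (5.38 to 14.2 against 2.42 to 9.77 CPM), T and NK cells (6.48 to 11.9 against 2.97 to 7.96), B and plasma cells (3.70 to 9.64 against 4.03 to 8.42), other endothelium (127 to 156 against 107 to 138), mesothelium (1.68 to 10.5 against 1.66 to 4.87), adipose tissue (264 to 359 against 298 to 396) and pancreas (10.3 to 15.5 against 9.07 to 15.7). Single markers in these lists could differ more than the sums. Among the T and NK cell markers, 4 of 5 means were lower. Trac (-1.48, adjusted p = 0.0583 from edgeR) and Cd3g (-0.93, adjusted p = 0.0784 from edgeR) had non-overlapping groups. Of the other endothelium markers, 3 of 5 means were lower. Cd34 was at -1.67 (adjusted p = 0.0810 from edgeR) with overlapping groups, while most of that sum was Plvap, at -0.21. Almost all of the adipose tissue sum was Cidec, at 288 ± 46.6 and 339 ± 48.0 CPM (SD over 4 mice). Adipoq and Plin1 had at most 0.39 CPM in any mouse. The pancreas sum was almost all Cela1, at 14.0 ± 2.46 and 11.7 ± 2.93 CPM (SD over 4 mice). Cpa1 had 0 counts and Pnlip 2 counts over all mice. Each of these sums thus rests on a single gene and does not show that the tissue was present. Striated muscle markers were at most 0.195 CPM in every mouse. The part of these cell types in the values of the members was not tested.

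**Figure D4:**
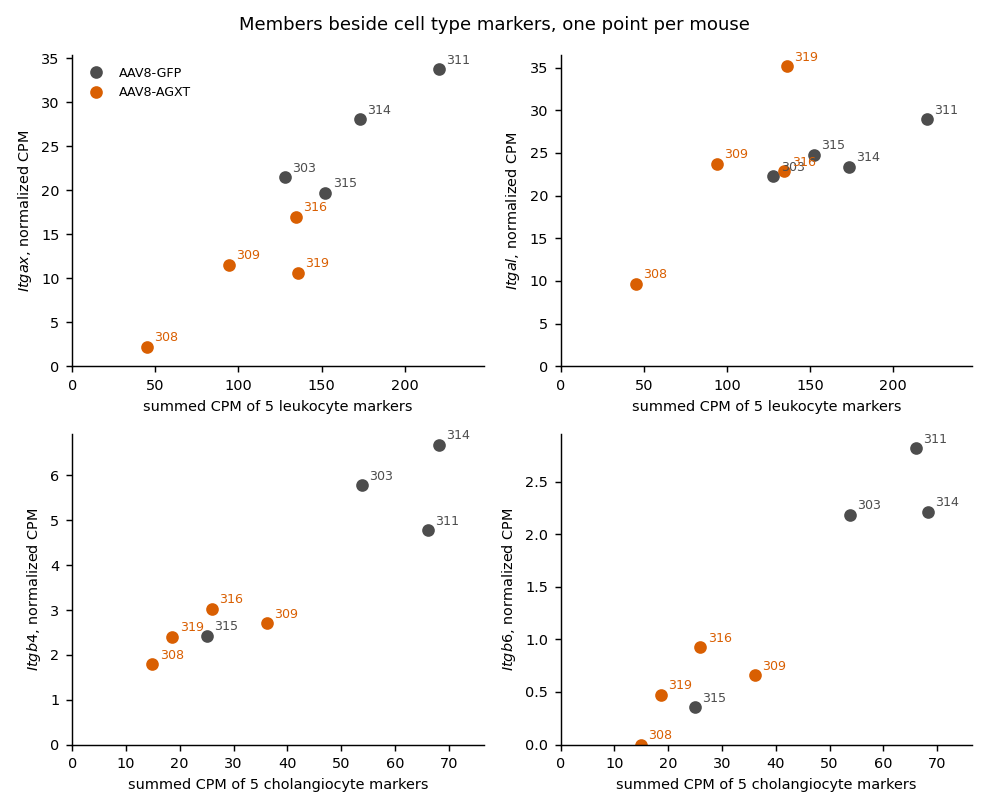
CPM of Itgax and Itgal against the summed CPM of 5 leukocyte markers, and of Itgb4 and Itgb6 against the summed CPM of 5 cholangiocyte markers, 1 point per mouse, labelled by animal number. AAV8-AGXT mouse 308 is lowest in both marker sums, and AAV8-GFP mouse 315 lies among the AAV8-AGXT mice for the cholangiocyte markers, Itgb4 and Itgb6.

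Around the receptors, 72 other genes of the pathway were in the table and 70 were tested. Ligands of integrins were called in 2 of 27 tested cases, both lower, where 1.9% of all genes were called lower, and 22 of 27 had lower means, where 47.7% of all genes did, with a median log2 fold change of -0.49. The 5 ligands with higher means were Fn1, Vtn, Fga, Fgb and Fgg. Their AAV8-GFP means ran from 914 CPM (Fn1) to 3550 CPM (Fgb). Their log2 fold changes ran from 0.14 (Fga) to 0.49 (Fn1, adjusted p = 0.185 from edgeR), all with overlapping groups. Emilin1 (ENSMUSG00000029163), an elastic fibre glycoprotein bound by Itga4 and Itga9, had 58.8, 67.8, 71.0 and 47.8 CPM in the AAV8-GFP mice and 34.9, 46.8, 43.1 and 34.7 CPM in the AAV8-AGXT mice, which did not overlap. Its log2 fold change was -0.62 ± 0.15 (SE, adjusted p = 0.0489 from edgeR). Tgfb3 (ENSMUSG00000021253), whose latent form is bound by the Itgav receptors, had 5.78, 5.36, 5.21 and 3.22 CPM and 1.04, 2.94, 2.21 and 1.89 CPM in the same order, a log2 fold change of -1.27 ± 0.31 (SE, adjusted p = 0.0495 from edgeR). These groups did not overlap either. Fbn1, the microfibril protein, came next with -1.19 ± 0.32 (SE, adjusted p = 0.0666) and overlapping groups. Both calls sat close to the threshold, and neither was made by edgeR without any 1 of mice 303, 311, 314, 308, 316 or 319, where adjusted p-values rose to at most 0.162 for Emilin1 and 0.164 for Tgfb3. Over all genes, 0% (without mouse 311) to 1.17% (without mouse 316) were called lower in those fits, against 1.9% with all mice.

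Laminin partners and other laminin receptors had lower means for 11 of 13 genes, a median log2 fold change of -0.28 and 0 calls. The 3 with the smallest p-values were Bcam, the Lutheran laminin receptor, at -1.03 ± 0.29 (SE, adjusted p = 0.0699), Nid1, which links laminin to collagen IV, at -0.94 ± 0.30 (SE, adjusted p = 0.0926), and Cd151, a tetraspanin bound to laminin-binding integrins, at -0.24 ± 0.10 (SE, adjusted p = 0.173). The groups did not overlap for Nid1. Adaptors and activators inside the cell split, with 13 of 30 tested means lower and 17 higher, a median of 0.05 and 0 calls. Here the smallest p-values belonged to the kinase Src at -0.98 ± 0.31 (SE, adjusted p = 0.0927), the parvin Parvb at -0.38 ± 0.13 (SE, adjusted p = 0.107) and the tensin Tns2 at 0.46 ± 0.16 (SE, adjusted p = 0.111). Ilk, the central adaptor of Itgb1, had 1 to 6 counts per mouse and was not tested, and 2461 of its 2744 exonic bases lie opposite Taf10 or Rrp8.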

How the data were processed

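Liver RNA of 8 mice was made into libraries with a stranded mRNA kit and sequenced from both ends. The authors trimmed the reads with Trimmomatic 0.35 (quality checks with FastQC 0.11.8), aligned them to GRCm38 with HISAT2 2.1.0.13 and assigned them to the genes of Ensembl release 90 by HTSeq. The deposited values are raw counts per gene, without normalization or filtering. The strand option of the counting is not given in the sources used here, so genes that overlap another gene are uncertain. HTSeq's tallies of pairs on no gene (17.4 to 23.4% aligned at several places, 5.02 to 6.36% ambiguous) were left out of library sizes.

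Mice were grouped by the treatment in their labels, and no mouse was left out. In R 4.3.3, edgeR 4.0.16 kept genes by filterByExpr, scaled them by TMM and fitted treatment alone by the quasi-likelihood method without robust estimation. Fold changes use a prior count of 0.125, and standard errors and 95% intervals come from the unshrunken coefficient. The common biological coefficient of variation was 23.3%. The alternatives were DESeq2 1.42.0 (the tool of the authors), limma-voom (limma 3.58.1), robust estimation, other scalings, other filters and leaving out each mouse. DESeq2 called 1054 of 15248 genes lower and 1077 higher here. These are more in each direction than the paper reports, so the DESeq2 calls given here are not the authors' calls. Exon lengths and positions were taken from GENCODE M21 (GRCm38), in which 52489 of the 52636 genes were found. P-values of edgeR weigh the difference between the groups against the spread among mice within a group, 4 per group. That spread is estimated for each gene with help from all genes tested.

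The members, the lists of other pathway genes and markers, and the tests were chosen with earlier results of these data known. Values in every mouse are given for members called, members whose groups do not overlap and the member with the highest CPM per kb in each role, and in addition for Itgal and Itgb6, chosen after their values were seen. Pathway genes named are those called, the 3 with the smallest p-value in each list, the ligands with higher means and Ilk, which was not tested. Shares and ratios over members carry no test. A member that is counted in the totals is not reported here by name.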

Additional observations from a re-analysis of the deposited data

Results flagged for a closer look

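In 3 of the 74 groups of 4 mice (the 36 tested members and the leukocyte integrin share, in each group), 1 mouse lay so far from the others that its gap to the nearest mouse passed Dixon's critical share of the whole range, which chance gives in about 1 of 20 groups. AAV8-AGXT mouse 308 had 15.8 CPM of Itga9, where the nearest mouse had 23.6 CPM. AAV8-AGXT mouse 309 had 188 CPM of Itgb1, where the nearest had 153 CPM. AAV8-GFP mouse 303 had 22.3 CPM of Lamb3, where the nearest had 10.6 CPM.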

How the results depend on the processing

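Where edgeR with TMM scaling called 0 members, DESeq2 called 10 lower and 2 higher, total-count scaling called 2 lower and the fit without a low-count filter called 1 higher, and leaving out 1 mouse at a time gave 0 to 4 lower and 0 higher. With at least 10 counts in every mouse, 31 members remained and 0 were called, as with robust estimation, limma-voom, DESeq2 size factors and upper-quartile factors. Of the pathway genes, 2 were called lower and 0 higher by edgeR. This became 1 lower with DESeq2 size factors, upper-quartile factors or at least 10 counts in every mouse, 4 lower with total counts, 6 lower without the filter, 17 lower and 2 higher with DESeq2, and 0 to 7 lower with 1 mouse left out. Of all genes, edgeR called 1.9% lower, total counts 5.62% lower, the fit without the filter 1.52% lower and DESeq2 6.91% lower and 7.06% higher. DESeq2 size factors called 1.8% lower, upper-quartile factors 1.95% and at least 10 counts in every mouse 1.69%. With 1 mouse left out, the share of all genes called lower was 0.514% (without 303), 0% (311), 0.0255% (314), 2.11% (315), 0.576% (308), 1.67% (309), 1.17% (316) and 0.0129% (319). Without mouse 311, 0 of 15343 genes were called lower and 2 higher. Signs turned in members near 0. Itga10 was at -0.034 with upper-quartile factors, -0.21 with total counts and -0.014 with at least 10 counts in every mouse, and Itga2b at -0.016 with total counts. With 1 mouse left out, Itga10 lay between -0.21 (without mouse 314) and 0.24, also turning without 308, Itgb1 between -0.11 and 0.041, positive without 314, 308, 316 or 319, Itga1 between -0.13 and 0.12, positive without 303 or 319, Itgae between -0.39 and 0.23, positive without 311 or 308, Itgal between -0.40 and 0.12, positive without 308, and Itga4 between -0.13 and 0.033, positive without 319. The cause was not tested. The leukocyte integrin share kept its sign under each alternative run, from -4.88 to -1.42 percentage points. No paired analysis was possible because no animal number occurs in both groups. Below about 10 counts per mouse, as for Itgad, Itgb6, Itga2, Itga11, Itgae and Itgb8 in some mice, counting error limits the values.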
